A study of Mus musculus with 8 samples.

Results

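T cells with a short beta-chain CDR3 were described in the brains of 5xFAD mice with and without Cxcr6. A cell was a member when its barcode carried exactly 1 productive T cell receptor beta (TRB) chain and the CDR3 of that chain had 11 or fewer amino acids, the first cysteine and the last phenylalanine included. The rule found 353 cells among 6223 barcodes with exactly 1 TRB chain, or 5.67%, and 6686 barcodes were listed in all. These cells carried 216 distinct TRB chains, where a chain is 1 V segment, J segment and CDR3 nucleotide sequence within 1 library. They were set against the 5721 cells with a TRB CDR3 of 12 to 16 residues, which carried 3703 distinct chains. The other 149 cells had 17 or more residues.

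The cells were CD45+ immune cells sorted from brain parenchyma, and all mice were on the C57BL/6 strain. Each genotype, 5xFAD and 5xFAD;Cxcr6-/-, gave 2 receptor libraries, prepared with the 10x kit for immune profiling (v2). 5xFAD mice express mutant human amyloid precursor protein and presenilin transgenes from the neuronal Thy1 promoter and form amyloid plaques. Both genotypes carry these transgenes, so no library is from a mouse without them. Cxcr6 encodes a chemokine receptor of tissue-resident T cells, and the series asks what it does for T cells in this brain. The labels give no age or sex and do not say whether the libraries of a genotype are separate mice or pools, so a p-value reflects only how much these samples spread, which may be technical. Gene expression (4 further samples) was not analysed here, and neither the genotype nor a CD4 or CD8 identity was checked.

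The CDR3 of the beta chain is the part of the receptor that lies over the middle of the presented peptide. It is written by joining a V, a D and a J segment in the thymus. Bases are trimmed from the segment ends, and the enzyme TdT adds bases with no template. The length of the loop therefore depends on how much the segments encode, how much was trimmed and how much was added. Invariant NKT cells and MAIT cells pair a nearly fixed alpha chain with a limited set of beta segments and see lipids or metabolites in place of peptides.

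The germline ends show how unequal the segments are in what they bring to the loop. The sequences below are the CDR3 part of segments that the results turn on, read 5′ to 3′ from GENCODE vM21 on GRCm38, all on chromosome 6 and the plus strand. For J segments they run to the last codon of the CDR3, for V segments from its first codon, and the D segments are whole.
TRBJ2-7 (chr6:41543810-41543856), 19 bases: ctcctatgaacagtacttc
TRBJ1-1 (chr6:41533864-41533911), 20 bases: caaacacagaagtcttcttt
TRBJ1-2 (chr6:41534001-41534048), 20 bases: caaactccgactacaccttc
TRBJ2-3 (chr6:41543223-41543271), 21 bases: agtgcagaaacgctgtatttt
TRBJ1-3 (chr6:41534323-41534376), 22 bases: ttctggaaatacgctctatttt
TRBJ1-6 (chr6:41535554-41535606), 25 bases: ttcctataattcgcccctctacttt
TRBV20 (chr6:41188273-41188977), 14 bases: tgtggtgctaggga
TRBV13-2 (chr6:41121396-41121832), 16 bases: tgtgccagcggtgatg
TRBV13-3 (chr6:41130147-41130585), 16 bases: tgtgccagcagtgatg
TRBV3 (chr6:41048290-41048828), 21 bases: tgtgccagcagcttagccaca
TRBD1 (chr6:41533201-41533212), 12 bases: gggacagggggc
TRBD2 (chr6:41542163-41542176), 14 bases: gggactgggggggc
The coordinates are those of the annotated segment, not of the CDR3 part alone. TRBJ2-7 was the shortest of the 12 J segments used and TRBJ1-6 the longest.

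The next sequences are short chains as found in the brain, chosen because they are the largest clones, the shortest loops or chains with and without a visible insertion. Lower-case bases match the germline V on the left or the germline J on the right, and capitals mark bases that match neither.
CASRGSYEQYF, TRBV16 with TRBJ2-7, the largest short clone: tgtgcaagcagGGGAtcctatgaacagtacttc
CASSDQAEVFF, TRBV13-1 with TRBJ1-1, the next largest: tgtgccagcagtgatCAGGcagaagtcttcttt
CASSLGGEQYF, TRBV15 with TRBJ2-7, 13 cells: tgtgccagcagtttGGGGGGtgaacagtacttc
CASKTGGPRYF, TRBV15 with TRBJ2-7, the longest insertion, TRBD2 called: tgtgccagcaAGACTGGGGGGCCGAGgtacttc
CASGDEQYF, TRBV13-2 with TRBJ2-7, nothing between V and J: tgtgccagcggtgatgaacagtacttc
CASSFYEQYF, TRBV29 with TRBJ2-7, nothing between V and J: tgtgctagcagtttctatgaacagtacttc
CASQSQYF, TRBV29 with TRBJ2-7, 8 residues: tgtgctagcCAGTCacagtacttc
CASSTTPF, TRBV12-2 with TRBJ2-7, 8 residues: tgtgccagctcCACGACACCcttc
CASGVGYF, TRBV13-2 with TRBJ2-7, 8 residues: tgtgccagcggGGTTGGgtacttc
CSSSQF, TRBV23 with TRBJ1-1, 6 residues: tgctccagcagtcaattt
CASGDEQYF and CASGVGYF were listed under the joined label TRBV12-2+TRBV13-2, printed here as TRBV13-2. In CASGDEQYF the whole 16 bases of TRBV13-2 are followed directly by the last 11 bases of TRBJ2-7. V was matched first, and the last 3 of its bases match TRBJ2-7 as well. In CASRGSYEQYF 1 base of TRBJ2-7 was missing and 4 bases matched neither segment.

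Most short loops sat at the upper edge of the class. Loops of 11 residues made up 294 of the 353 cells and 167 of the 216 chains, and 10 residues were found in 45 cells. Shorter ones were few, with 8 cells at 9 residues, 5 at 8, 0 at 7 and 1 at 6. Just outside the rule, 593 cells carried a loop of 12 residues. Among distinct chains the most frequent length was 14 residues in every library.

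**Figure D1:**
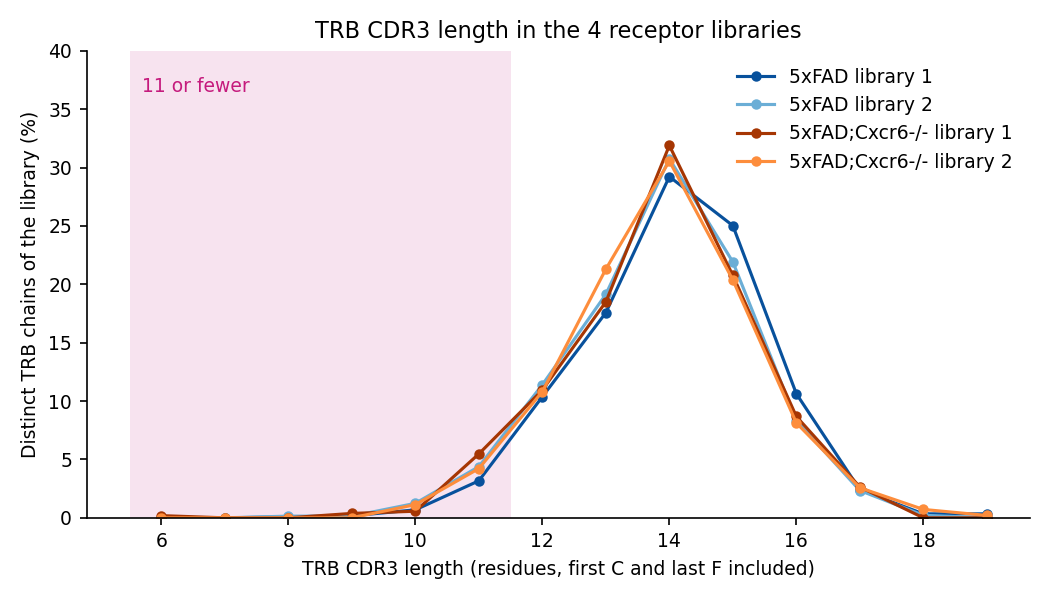
Percent of distinct TRB chains (y) at each CDR3 length in residues (x) in the 4 receptor libraries, one line per library, with the lengths of 11 or fewer residues shaded. All 4 libraries peak at 14 residues, and the shaded lengths hold between 4.11% and 6.60% of chains.

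The frequency of short loops overlapped between the genotypes. It held 4.69% (95% Clopper-Pearson interval 3.79 to 5.73) and 6.89% (5.90 to 7.99) of 1-TRB cells in the 5xFAD libraries. The 5xFAD;Cxcr6-/- libraries held 6.29% (4.59 to 8.37) and 4.56% (3.47 to 5.87). The ranges of the genotypes overlapped, with means of 5.79% ± 1.56 (SD, n = 2) and 5.43% ± 1.22 (SD, n = 2). The difference of -0.367 percentage points gave p = 0.667 in an exact two-sided permutation test, where 2 libraries against 2 cannot go below 0.33. Counted as distinct chains, which leaves clone size out, short loops were 4.11% and 5.92% of chains in the 5xFAD libraries against 6.60% and 5.35%. That difference of 0.962 points also gave p = 0.667 in the exact permutation test, and all 8 such tests had an adjusted p of 1. Intervals cover counting error only and treat cells as independent, so they are too narrow where many cells belong to 1 clone.

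Depth was similar in both classes. The libraries held 765 to 2522 barcodes and 13460 to 34772 UMIs. The median TRB chain had 10 to 11 UMIs in short cells and 8 to 10 in cells of 12 to 16 residues. An alpha chain was found in 76.5% to 86.0% of short cells per library and in 78.5% to 83.6% of the others. Only TRA and TRB contigs were listed, so every barcode met the T cell definition, and this is no check for other cells. Across libraries 28 barcodes occurred more than once, 3 short cells carried one of them, and 0 of these barcodes had an identical chain in both libraries.

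Among V and J segments of both chains, only J segments of the beta chain were called as different in short chains. TRBJ2-7 and TRBJ1-1 were each higher by about 1 on the log2 scale in short chains than in chains of 12 to 16 residues, and TRBJ1-3 and TRBJ2-3 were rarer. Segment use was compared with edgeR's quasi-likelihood test on the number of distinct chains per segment, with a term for each library and the log chain total as offset. Of 151 V and J segments of both chains tested, 4 were called at an adjusted p under 0.05 (2.65%), 2 higher (1.32%) and 2 lower (1.32%), and all 4 were TRBJ segments. In simulated data this test recovered 27.5% of 2-fold increases and 4% of 2-fold decreases. A segment that was not called may therefore still differ between the classes. Bases of a J or V segment of the beta chain count to the loop length that defines the classes. Short chains thus favour segments that encode few bases by construction, and the test cannot separate segment use from the length rule.

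TRBJ2-7 made up 39.6% and 37.0% of short chains in the 5xFAD pair of libraries and 51.4% and 34.6% in the 5xFAD;Cxcr6-/- pair. Among chains of 12 to 16 residues it made up 20.6%, 20.1%, 19.1% and 19.2%. Every library was higher in its short chains, and the classes did not overlap. The log2 fold change was 0.99 (SE 0.12), with an adjusted p of 7.4e-06 by edgeR.

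TRBJ1-1 made up 20.8% and 28.4% of short chains in the 5xFAD pair and 17.1% and 19.2% in the 5xFAD;Cxcr6-/- pair. Chains of 12 to 16 residues used it at 11.5%, 11.2%, 11.4% and 10.7%. The log2 fold change was 1.02 (SE 0.20), with an adjusted p of 0.00153 by edgeR. Every library was higher in its short chains and the classes did not overlap.

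The segments called lower were carried by few short chains. TRBJ1-3 was in 2 short chains and 237 of 12 to 16 residues, a log2 fold change of -2.75 (SE 0.76) with an adjusted p of 0.0170 by edgeR. TRBJ2-3 was in 5 against 285, a log2 fold change of -1.72 (SE 0.53) with an adjusted p of 0.0490 by edgeR. Both were lower in short chains in 4 of 4 libraries. The call of TRBJ2-3 was lost in each of the 4 fits that left out 1 library, and it was made in 4 of 15 alternatives. The call of TRBJ1-3 was lost in 3 of those 4 fits, all but the one without 5xFAD;Cxcr6-/- library 1, and it was made in 8 of 15 alternatives. TRBJ2-2, in 2 short chains, had a log2 value of -2.48 and an adjusted p of 0.109 by edgeR, so it did not pass.

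The call depended on how the classes were scaled. With TMM scaling, which moved the median log2 value of all segments by -0.58, 10 segments were called and all were lower, 0 higher. TRBJ2-7 was then at 0.40 and TRBJ1-1 at 0.44. DESeq2 called 0 segments (15 at an unadjusted p under 0.05), and so did counting cells in place of chains (11 unadjusted). Without 5xFAD library 2 only TRBJ2-7 was called, and TRBJ1-1 stood at 0.78. TRBJ2-7 and TRBJ1-1 had positive values in each of these fits. Shares within a class add up to the whole, so a gain of 2 segments lowers the others by construction.

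**Figure D2:**
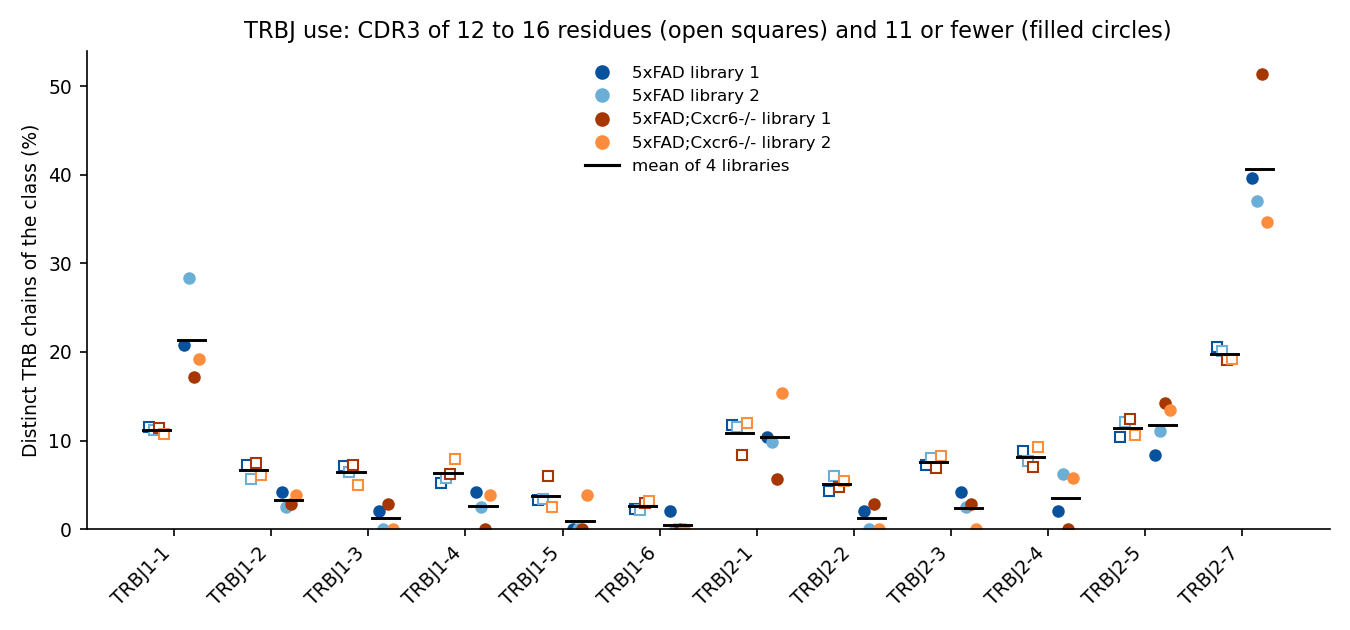
Percent of the distinct TRB chains of a length class (y) that use each TRBJ segment (x), with open squares for CDR3 of 12 to 16 residues, filled circles for 11 or fewer, 1 colour per library and black lines for the mean of 4 libraries. Filled circles for TRBJ2-7 lie between 34.6% and 51.4% and its squares between 19.1% and 20.6%.

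The 12 J segments lie in 2 clusters, each behind its own D segment. In the upstream TRBJ1 cluster 1 of 6 segments was called higher and 1 lower, with a median log2 value of -1.54. In the TRBJ2 cluster 1 of 6 was higher and 1 lower, with a median of -0.52. Under TMM scaling each cluster had 0 higher and 3 lower, with medians of -2.14 and -1.09, and DESeq2 called 0 in either. The median over all 12 TRBJ was -1.07 and over all 151 segments -0.16. As a whole, the TRBJ2 cluster took 66.7%, 66.7%, 77.1% and 69.2% of short chains and 63.2%, 65.4%, 58.6% and 64.7% of the others.

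Read the other way, segments that encode fewer CDR3 bases tended to have a larger share of short chains, with exceptions. For TRBJ1-1 49 of 465 chains of any length were short (10.5%), and for TRBJ2-7 85 of 829 (10.3%). TRBJ2-5 (5.45%) and TRBJ2-1 (4.99%) came next, and the remaining 8 segments lay at 2.8% or less. TRBJ1-2 encodes 20 bases like TRBJ1-1 but only 7 of its 250 chains were short. Over the 12 TRBJ segments, the germline CDR3 bases and the short share had a Pearson r of -0.68 and a Spearman rho of -0.74. These are a description over segments that share the same libraries. Germline bases are part of the loop length, so a negative value is favoured by construction.

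**Figure D3:**
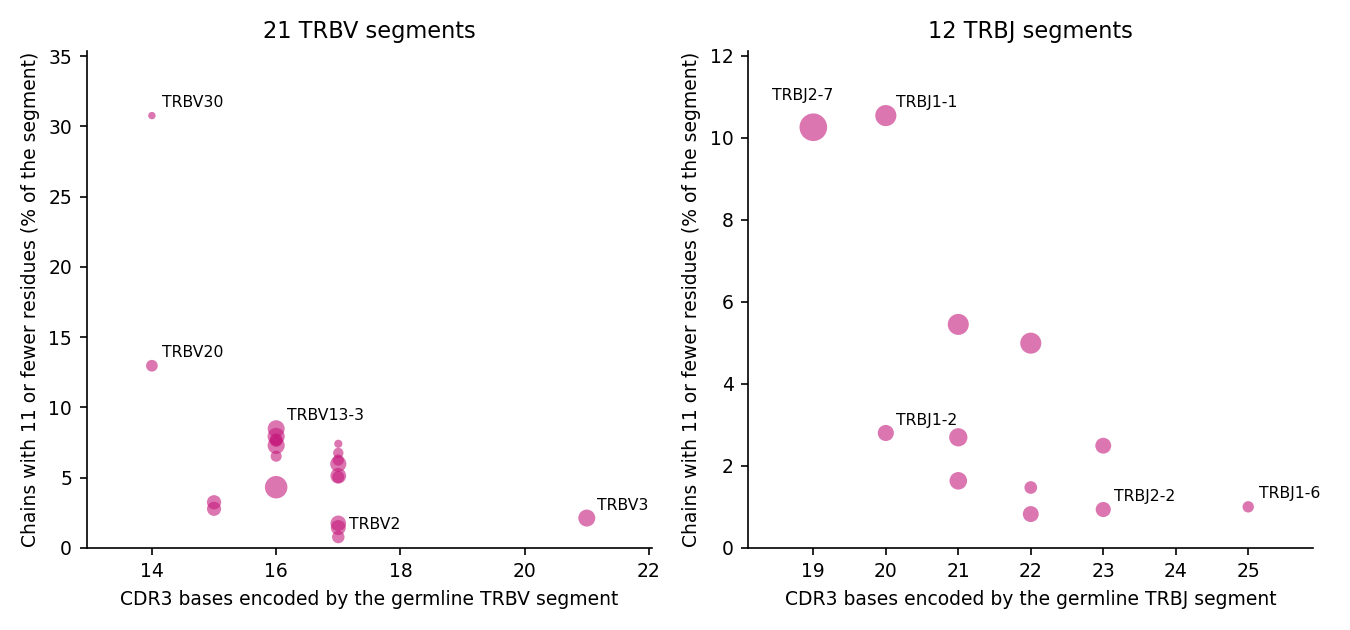
Percent of a segment's distinct chains that have 11 or fewer residues (y) against the CDR3 bases its germline sequence encodes (x), for 21 TRBV (left) and 12 TRBJ segments (right), with point area growing with the number of chains. TRBJ2-7 and TRBJ1-1 lie near 10%, and TRBV20 and TRBV30, with the fewest bases, lie above the other TRBV segments.

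No TRBV segment passed the test, 0 of 22, with 4 called lower under TMM scaling (TRBV1, TRBV3, TRBV5 and the label TRBV12-2+TRBV13-2), and the leading ones in short chains, by mean share over the 4 libraries, were TRBV13-3, TRBV19, the label TRBV12-2+TRBV13-2, TRBV13-1 and TRBV20. TRBV13-3 took 6.25% and 8.64% of short chains in the 5xFAD pair and 20% and 13.5% in the 5xFAD;Cxcr6-/- pair, against 6.24% to 7.42% of the others. Its log2 value was 0.70 (SE 0.34), with an adjusted p of 0.372 by edgeR. TRBV19 ranged from 4.94% to 18.8% of short chains and was higher than in the other class in 2 of 4 libraries. TRBV13-1 took 14.6% and 13.6% in the 5xFAD pair and 5.71% and 5.77% in the 5xFAD;Cxcr6-/- pair, against 8.22%, 7.34%, 6.65% and 5.53% of the others, and was higher in 3 of 4 libraries. Its log2 value between length classes was 0.61 (SE 0.34), with an adjusted p of 0.447 by edgeR.

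TRBV20, whose germline end is among the shortest, was in 14 short chains. It took 4.17%, 7.41%, 14.3% and 1.92% of short chains against 2.22% to 3.12% of the others, and was higher in 3 of 4 libraries. The log2 value was 1.32 (SE 0.59), with an adjusted p of 0.302 by edgeR. It passed when the class was widened to 12 residues, which also took loops of that length out of the comparison class. The log2 value was then 1.86, with an adjusted p of 5.72e-05 by edgeR. Of the 108 chains of TRBV20 of any length, 13% were short.

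TRBV30 and TRBV3, named here after their values were seen, mark the ends of the range of germline lengths. TRBV30 encodes 14 bases and 4 of its 13 chains were short (30.8%). TRBV3 encodes 21 bases and 6 of its 283 chains were short (2.12%). Neither passed, with adjusted p of 0.302 and 0.164 by edgeR. Other segments departed from this order. TRBV12-1 and TRBV12-2 encode 15 bases, and 3.24% and 2.78% of their chains were short. TRBV23 encodes 17 bases, and 2 of its 27 chains were short (7.41%). Over 21 TRBV segments, with TRBV13-2 entered under both of its labels, the Pearson r of germline bases and short share was -0.54 and Spearman's rho -0.53. A negative value is favoured by construction here too.

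The TRBV12 and TRBV13 families lie interleaved on chromosome 6. Of 2 TRBV12 labels 0 passed, with a median log2 value of -0.90, and of 4 TRBV13 labels 0 passed, with a median of 0.48 that was -0.10 under TMM scaling. The median over all 22 TRBV was 0.20, and -0.40 under TMM scaling. Together the TRBV13 labels took 37.5%, 34.6%, 34.3% and 34.6% of short chains and 33.8%, 30.2%, 26.4% and 23.9% of the others. The joined label TRBV12-2+TRBV13-2 behaved as TRBV13-2 at the sequence level, since the end of the framework region matched germline TRBV13-2 in 512 of 512 chains of these classes and TRBV12-2 in 0. Joining it with the plain TRBV13-2 label gave a log2 value of -0.17 in place of 0.36 for TRBV13-2 alone.

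Short loops held fewer bases of the J segment and fewer bases between V and J, and nearly as many of the V segment. Of the 216 short chains 207 could be laid against the germline, and the other 9 used TRBV10, whose annotated model is a pseudogene that lacks the end of the deposited framework. J segments kept 14.6 ± 3.07 bases (SD over 207 chains) in short loops and 18.3 ± 2.86 (3572 chains) in loops of 12 to 16 residues. Bases that matched neither V nor J numbered 4.86 ± 2.89 against 9.996 ± 3.58. V bases differed least, at 12.7 ± 2.33 against 13.7 ± 2.11. These parts add up to the loop, so they describe the class and were not tested.

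The 4 libraries gave nearly the same picture. Unmatched bases averaged 4.74, 4.52, 5.39 and 5.15 in short chains against 10.2, 9.97, 9.91 and 9.85. J bases averaged 14.3, 14.8, 13.9 and 14.9 against 18.3, 18.3, 18.4 and 18.2. From the germline J an average of 5.58 bases was missing in short chains and 2.66 in the others, and from the germline V 3.52 and 2.88.

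Chains with little or nothing between V and J were frequent among the short ones. In 73 of 207 (35.3%) 3 or fewer bases were unmatched, against 98 of 3572 (2.74%). In 8 short chains (3.86%) and 6 of the others (0.168%) none was, as in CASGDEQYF and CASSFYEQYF printed above. At the other end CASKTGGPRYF held 16 unmatched bases and kept only 7 bases of TRBJ2-7.

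**Figure D4:**
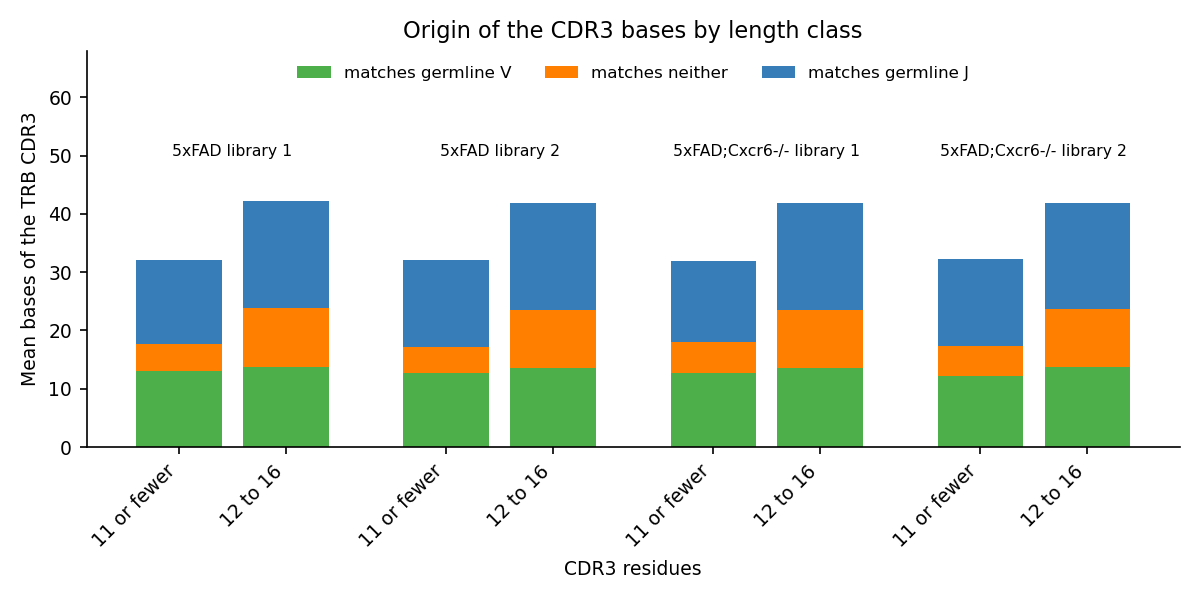
Mean number of CDR3 bases (y) that match the germline V (green), neither segment (orange) or the germline J (blue), stacked for chains of 11 or fewer and of 12 to 16 residues in each library (x). The orange part averages 4.52 to 5.39 bases in short chains and 9.85 to 10.2 in the others, and the green part differs least.

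A D segment was rarely called in short chains. The deposited tables named one in 4 of 48 (8.33%) and 3 of 81 (3.70%) short chains of the 5xFAD pair, and in 2 of 35 (5.71%) and 3 of 52 (5.77%) of the 5xFAD;Cxcr6-/- pair. In chains of 12 to 16 residues the shares were 23.8%, 23.5%, 24.5% and 21.1%. The classes did not overlap. The mean difference was -17.4 percentage points, lower in 4 of 4 libraries, with p = 0.13 in an exact two-sided sign-flip permutation test over the 4 libraries, which is the smallest p it can give. Bases of a D segment count to the loop length that defines the classes, so a lower share in short chains is favoured by construction. The test cannot separate the D call from the length rule.

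Of the 12 calls in short chains 10 were TRBD1, the D segment of the upstream cluster, and 2 were TRBD2. The other chains had 584 and 274 calls. A stretch of 5 or more bases of either D was found in the unmatched part of 58 of 207 short chains (28.0%) and of 2724 of 3572 others (76.3%), so most such stretches carried no call.

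Set beside chains with as many unmatched bases, the short ones were not lower throughout. With 6 to 8 unmatched bases a D was called in 6 of 52 short chains (11.5%) and 41 of 849 others (4.83%). With 9 to 11 it was 1 of 15 (6.67%) and 233 of 1211 (19.2%). With 3 to 5, the most common range in short chains, it was 1 of 98 and 1 of 330, and with 0 to 2 it was 0 of 36 and 0 of 41. With 12 to 14 it was 3 of 5 (60%) and 300 of 737 (40.7%), and with 15 to 24 it was 1 of 1 and 245 of 404 (60.6%). The range of 9 to 11 was thus the only one of these 6 with a lower share in short chains.

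The first 4 residues are written mostly by the V segment and the last 5 by the J. CASS opened 54.2%, 54.3%, 54.3% and 51.9% of short chains and 61.5% to 68% of the others, lower in 4 of 4 libraries. CASR, which ends in arginine, opened 6.25% to 9.62% against 3.53% to 4.55%, and CAST 2.08% to 3.85% against 0.832% to 1.48%, both higher in 4 of 4. CASG, the start of TRBV13-2, showed no common direction. The ending YEQYF of TRBJ2-7 was the most frequent, in 44 short chains, and TEVFF of TRBJ1-1 followed with 25.

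The core, taken as the residues left after removing 3 from each end, averaged 4.70 residues in short chains and 7.99 in the others. Tryptophan was in the core of 1.23% of short chains in 5xFAD library 2 and of 0 in the other libraries, where 0 of 48, 0 of 35 and 0 of 52 allow up to 6.25%, 8.57% and 5.77%. It was in 12% to 13.3% of the other chains. Glycine was in 51.9% to 62.5% of short chains against 79.8% to 83.4%, and proline in 8.33% to 17.3% against 20.5% to 23.7%. A shorter core has fewer places for any residue, and a share of core residues takes this into account. It does not do so for a residue that a segment encodes, which weighs more in a shorter core. Tryptophan was 0.0985% of core residues against 1.62%, whereas glycine (15.6% against 18.5%) and proline (2.76% against 2.91%) differed less.

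Acidic residues took a larger share of the short core, though there were fewer of them per chain. Aspartate and glutamate were 25.8%, 22.5%, 27.0% and 22.9% of core residues in short chains against 16.1% to 16.8%, higher in 4 of 4 libraries. Lysine and arginine together were 7.11% to 9.20% against 6.11% to 6.89%. The mean Kyte-Doolittle hydropathy, where negative values are polar, was -1.74 to -1.34 against -1.31 to -1.26. TRBJ2-7 and TRBJ1-1 both encode a glutamate, so the core was also read within 1 J segment. Within TRBJ2-7 chains, acidic residues were 29% of the short core and 21.4% of the other, and tryptophan was in 1.18% and 18.5% of chains. The encoded glutamate is still part of a shorter core there, so this reading cannot separate the share from the core length. Counted per chain, short TRBJ2-7 loops held fewer acidic residues, 1.33 against 1.61. The counts were 1.16 against 1.59 for TRBJ1-1 and 0.90 against 1.20 for the other TRBJ.

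Alpha chains beside short beta chains were described for the cells that had one. Of the 353 cells 280 had 1 or 2 TRA chains. The TRA CDR3 averaged 13.5 to 13.9 residues beside short beta chains and 13.7 to 13.9 beside the others. No TRAV or TRAJ segment passed the test, 0 of 74 and 0 of 43. The most used TRAV were TRAV11, TRAV13-1 and TRAV6-6. TRAV13-1 was in 9.52%, 7.41%, 6.06% and 4.0% of short pairs against 2.34% to 4.34%, higher in 4 of 4 libraries, with a log2 value of 0.96 (SE 0.56) and an adjusted p of 0.493 by edgeR. The most used TRAJ were TRAJ18, TRAJ22 and TRAJ40. TRAJ18 was in 11.9%, 13.6%, 12.1% and 4.0% of short pairs against 19.9%, 12.8%, 7.03% and 3.88%, with no common direction. TRAJ40 was in 2.38%, 2.47%, 9.09% and 8.0% of short pairs against 1.32%, 2.43%, 1.76% and 3.03%, nearly equal in 5xFAD library 2 and higher in the other 3. Its log2 value was 1.12 (SE 0.68) with an adjusted p of 0.521 by edgeR. TRAV13-2, named here after its values were seen, was in 2.38%, 2.47%, 3.03% and 4.0% of short pairs against 1.32%, 0.695%, 1.54% and 0.850%. Those 6 short pairs gave a log2 value of 1.52 (SE 0.86) and an adjusted p of 0.447 by edgeR. TRAV copies are nearly identical in places, so their assignment is uncertain.

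iNKT-like cells, those with TRAV11 or TRAV11D joined to TRAJ18, were present among short-loop cells. They were 3 of 72 (4.17%) and 8 of 124 (6.45%) paired short cells in the 5xFAD pair, and 4 of 37 (10.8%) and 0 of 47 in the 5xFAD;Cxcr6-/- pair, where 0 of 47 allows up to 6.38%. Among paired cells of 12 to 16 residues the shares were 14.1%, 7.87%, 3.68% and 1.77%. The mean difference was -1.49 points with p = 0.625 in the exact sign-flip permutation test, and the sign differed between libraries. All 15 shared the same TRAV11 TRAJ18 alpha CDR3, of 15 residues, and each was a clone of 1 cell. The cell with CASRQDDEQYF in 5xFAD;Cxcr6-/- library 1 also had a second alpha chain, TRAV15D-1-DV6D-1 with TRAJ4. Their beta chains used the joined label TRBV12-2+TRBV13-2, TRBV13-1, TRBV13-3 and TRBV29, for example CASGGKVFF with TRBJ1-1 at 9 residues. The beta segments fixed as iNKT partners (TRBV13-2 under both labels, TRBV29 and TRBV1) gave 0 calls of 4, with a median log2 value of -0.05. Under TMM scaling 2 of the 4 were called lower, with a median of -0.63. One short cell was MAIT-like, with TRAV1 and TRAJ33 beside the beta CDR3 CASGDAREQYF.

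The expanded share of short cells rested on a few large clones in the 5xFAD libraries. By the deposited clonotypes, the short cells formed 221 clonotypes, of which 31 (14%) held 2 or more cells, against 515 of 3796 (13.6%) for 12 to 16 residues. Cells in such expanded clonotypes were 54.9% (50 of 91) and 58.0% (94 of 162) of short cells in the 5xFAD pair, and 30.2% (13 of 43) and 10.5% (6 of 57) in the 5xFAD;Cxcr6-/- pair. For 12 to 16 residues the shares were 45.6%, 50%, 30.9% and 30.6%. The short class was thus higher in both 5xFAD libraries, by 9.30 and 8.02 points, and lower in the others, by -0.697 and -20.1. The mean difference was -0.864 points, with p = 0.875 in the exact sign-flip permutation test.

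The largest short clones were 1 in each 5xFAD library. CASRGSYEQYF, with TRBV16 and TRBJ2-7 and the alpha chain TRAV12-2 TRAJ47 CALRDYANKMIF, held 42 cells or 25.9% of the short cells of 5xFAD library 2. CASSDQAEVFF, with TRBV13-1 and TRBJ1-1 and the alpha chain TRAV10 TRAJ42, held 31 cells or 34.1% of those of 5xFAD library 1. Each ranked 3 by size in its library. Left out together with the largest clone of the other class, a choice made after seeing the data, the expanded share of short cells was 31.7%, 43.3%, 23.1% and 3.77%. A single clone is a larger part of the smaller short class, so leaving it out lowers the share of that class more by construction.

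**Figure D5:**
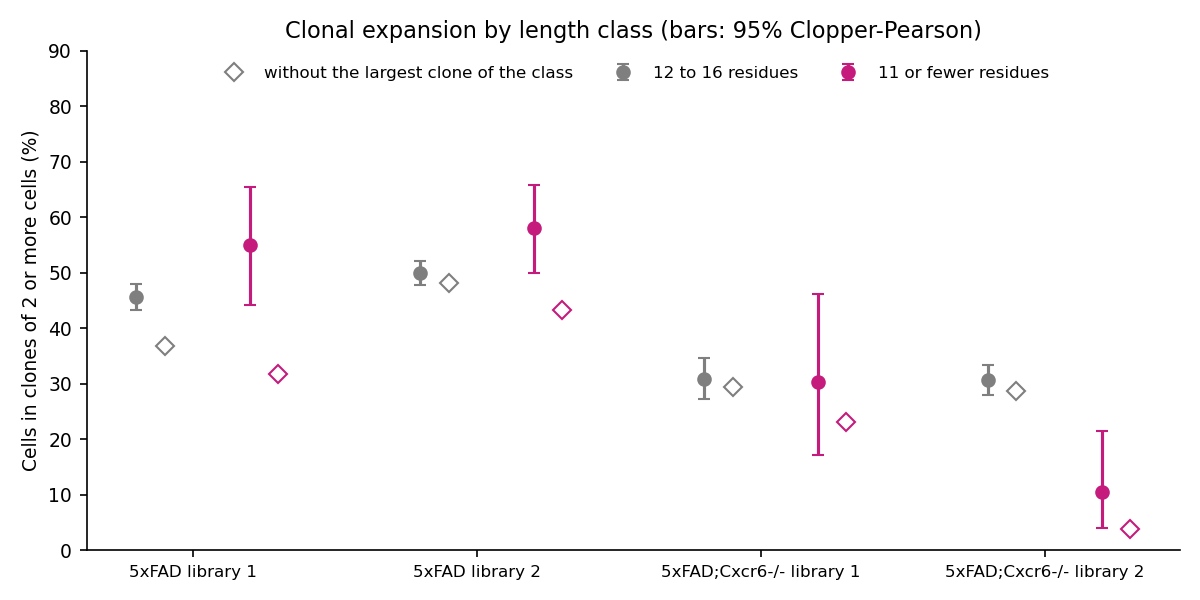
Percent of cells in clones of 2 or more cells (y) for TRB CDR3 of 12 to 16 residues (grey) and 11 or fewer (magenta) in each library (x), with 95% Clopper-Pearson bars and open diamonds for the value without the largest clone of the class. Filled magenta points lie above filled grey ones in the 5xFAD libraries only, and open magenta diamonds lie below open grey ones in all 4 libraries. Leaving out 1 clone moves the smaller magenta class more by construction. The bars treat cells as independent, which cells of 1 clone are not.

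The other leading short clones were smaller. In 5xFAD library 2, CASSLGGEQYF of TRBV15 held 13 cells and paired with TRAV5D-4 TRAJ24, and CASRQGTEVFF of TRBV3 and TRBJ1-1 held 8. In 5xFAD library 1, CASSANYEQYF of TRBV13-3 was a clonotype of 5 cells, 4 of them with 1 TRB, and 3 clones, among them the 8-residue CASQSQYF with TRAV7-5 TRAJ15, held 3 each. The 5xFAD;Cxcr6-/- libraries had none above 4 cells. Their largest were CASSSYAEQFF of TRBV13-3 and TRBJ2-1 with TRAV17 TRAJ48, and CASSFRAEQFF of TRBV14 and TRBJ2-1 with TRAV9N-4 TRAJ37.

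Clone size grows with the cells sampled, so shares between genotypes were computed for 765 barcodes per library. The expected expanded share of short cells was then 46.2% and 47.4% in the 5xFAD pair and 30.2% and 8.50% in the 5xFAD;Cxcr6-/- pair. The means were 46.8% ± 0.896 (SD, n = 2) and 19.4% ± 15.4 (SD, n = 2), and the groups did not overlap. The exact permutation test gave p = 0.33, the smallest possible. The difference of -27.4 points was -16.6 without 5xFAD;Cxcr6-/- library 2, -9.79 with 2-TRB barcodes kept and -11.3 at 12 or fewer residues, and it turned to 3.19 at 10 or fewer. Keeping 2-TRB barcodes added 37 cells of 5xFAD;Cxcr6-/- library 1 that shared a loop listed as CSSSRQ, which does not end in phenylalanine. For 12 to 16 residues the means were 38.1% and 28.1%, also without overlap.

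Few short chains were found in more than 1 library. Of 212 short TRB sequences with V, J and CDR3 amino acids counted, 4 (1.89%) were in 2 libraries, against 17 of 3659 (0.465%) for 12 to 16 residues. At the nucleotide level it was 2 of 214 (0.935%) against 4 of 3687 (0.108%). By CDR3 amino acids alone the classes lay close, with 4 of 208 (1.92%) against 56 of 3603 (1.55%). Each shared short chain was seen in 1 cell per library.

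Of the shared loops, 2 had identical nucleotides in both libraries and 2 did not. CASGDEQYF of the joined label TRBV12-2+TRBV13-2 had the same nucleotides in 5xFAD library 1 and 5xFAD;Cxcr6-/- library 1, with no base between V and J. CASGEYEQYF of TRBV13-2 had the same nucleotides in 5xFAD library 2 and 5xFAD;Cxcr6-/- library 2, with a single unmatched base. Both cells of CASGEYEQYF carried TRAV14D-3-DV8 and TRAJ16, with the alpha CDR3 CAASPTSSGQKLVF in the first and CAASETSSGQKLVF in the second. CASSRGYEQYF was the only short loop found in 3 libraries and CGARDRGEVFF was in 2, each from different nucleotides, shown here with unmatched bases in capitals.
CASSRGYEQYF, TRBV17, 5xFAD library 2: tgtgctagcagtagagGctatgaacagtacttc
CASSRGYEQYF, TRBV12-1, 5xFAD;Cxcr6-/- library 1: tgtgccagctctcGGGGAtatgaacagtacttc
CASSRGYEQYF, TRBV12-1, 5xFAD;Cxcr6-/- library 2: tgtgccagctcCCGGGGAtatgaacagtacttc
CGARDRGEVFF, TRBV20, 5xFAD library 1: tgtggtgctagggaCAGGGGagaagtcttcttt
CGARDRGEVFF, TRBV20, 5xFAD;Cxcr6-/- library 1: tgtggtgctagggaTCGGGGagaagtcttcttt
All 3 forms of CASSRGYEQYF kept the same 15 bases of TRBJ2-7 at their end, and the TRBV17 form kept 1 more. Both forms of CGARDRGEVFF kept the whole end of TRBV20.

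By genotype, no segment passed the test within short chains. Within short chains 0 of 20 segments with enough chains were called (0%), and 0 had an unadjusted p under 0.05 by edgeR, with 0 calls by DESeq2. TRBV13-1 and TRAJ40, named here after their values were seen, did not overlap between the genotypes, and neither passed. This was not particular to them. Other segments did not overlap either, and none of them passed. Among them were TRBV13-3, TRBV16, TRBV29, TRBJ1-1, TRBJ2-5, the label TRBV12-2+TRBV13-2 and TRAV13-1. The share of all tested segments without overlap was not computed. An exact permutation test of 2 libraries against 2 cannot go below 0.33, so a lack of overlap marks no segment out. TRBV13-1 had a log2 value of -1.25 (SE 0.28) for 5xFAD;Cxcr6-/- against 5xFAD and TRAJ40 one of 1.69 (SE 0.60), both with an adjusted p of 0.467 by edgeR. The test of whether the difference between length classes depends on genotype called 0 of 151 segments (0%), with 2 at an unadjusted p under 0.05 by edgeR and 0 by DESeq2. The D call averaged 6.02% ± 3.27 (SD, n = 2) of short chains for 5xFAD against 5.74% ± 0.0389 (SD, n = 2) for 5xFAD;Cxcr6-/-. That difference of -0.277 points gave p = 1 in the exact permutation test. The iNKT-like share of paired short cells was 5.31% ± 1.62 against 5.41% ± 7.64 (SD, n = 2 each), with p = 1 in the exact permutation test.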

How the data were processed

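T cell receptor libraries of 4 samples, 2 per genotype, were used. Gene expression was not analysed here. Per the labels' protocols the kit was the Chromium immune profiling kit v2. Cell Ranger 6.0 and mm10 are named per the submitters' processing notes, and the command and receptor reference are not given in the sources used here. The deposited tables list productive contigs, each with its read and UMI counts (not normalized) and its length, per the file headers. Groups and replicate numbers come from the titles.

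Cells with exactly 1 TRB were split by CDR3 length, and cells with 2 or more TRB were left out, as they can be doublets. No doublet caller was run. Germline ends were taken from GENCODE vM21 (GRCm38) by matching the last 15 framework bases before, or the first 12 after, the CDR3. V and J matches were then extended from both ends, V first.

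Segments with at least 10 distinct chains were tested with edgeR 4.0.16 (quasi-likelihood F test, R 4.3.3, Benjamini-Hochberg over all segments, threshold 0.05). The SE is the absolute log2 value divided by the square root of F. DESeq2 1.42.0 was an alternative. Chains are counted within libraries, and the tests rest on 4 libraries. Single values used exact two-sided permutation tests. Expanded means 2 or more cells of a deposited clonotype, and all cells of a clonotype count to its size. Thinned shares are hypergeometric expectations. Zero counts carry the limit of 3 counts. The code was tested on simulated data. There, 20 segments with at least 100 chains were changed between the length classes, at a dispersion of 0.01. The edgeR test recovered 27.5% of 2-fold increases and 4% of 2-fold decreases, and 98.5% and 54% of 4-fold ones.

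Named were the called segments, all TRBJ, the 5 TRBV, 3 TRAV and 3 TRAJ most used in short chains, 5 lists, the 3 largest clones of each library (fewer where tied), the shortest chains and shared chains. Other chains printed were picked after their sequences were seen. The members, lists and tests were chosen with earlier results of these data known.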

Additional observations from a re-analysis of the deposited data

Results flagged for a closer look

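In 5xFAD;Cxcr6-/- library 1, 41 of 61 barcodes with 2 TRB chains, which the comparisons leave out, carried a short one, or 67.2%. The other libraries had 11%, 23.9% and 14.5%. In that library 37 of these cells had the same 3 chains, so its share rests mostly on cells that are not independent. The 3 chains were TRBV17 with TRBJ2-7 and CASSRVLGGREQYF at a median of 23 UMIs, TRAV6N-7 with TRAJ17 and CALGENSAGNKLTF at 5, and TRBV23 with TRBJ1-1 and a loop listed as CSSSRQ at 7. The listed 6 residues do not end in phenylalanine, and the residues after them were NTRTRLTVV. The only 6-residue loop among the 1-TRB cells, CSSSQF, was also TRBV23 with TRBJ1-1 and came from the same library, with 1 cell. Keeping cells with 2 TRB raised the mean share of short cells in 5xFAD;Cxcr6-/- over 5xFAD to a difference of 1.56 points.

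The expanded share of short cells minus that of cells with 12 to 16 residues was positive in both 5xFAD libraries and negative in both 5xFAD;Cxcr6-/- libraries. In 5xFAD;Cxcr6-/- library 1 it was only -0.697 points. The genotypes differed by -19.1 points, with p = 0.33 in an exact permutation test, the smallest possible with 2 libraries against 2. Without the largest clone of each class the values in the 5xFAD pair were negative as well, at -5.07 and -4.83 points. Leaving out 1 clone lowers the smaller short class more by construction.

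TRBJ2-5 was lower in short chains than in the others in both 5xFAD libraries (8.33% and 11.1% against 10.4% and 12.1%) and higher in both 5xFAD;Cxcr6-/- libraries (14.3% and 13.5% against 12.5% and 10.6%). The genotypes differed by 3.89 points. TRBV29 went the other way, with 8.33% and 9.88% of short chains against 8.31% and 5.51% in 5xFAD, and 5.71% and 1.92% against 6.65% and 4.51% in 5xFAD;Cxcr6-/-, a difference of -3.96 points. In the edgeR interaction test both had an adjusted p of 0.995.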

How the results depend on the processing

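Between genotypes, the share of barcodes with a short loop had a difference of -0.367 points that turned to 0.111 at 10 or fewer residues, 0.95 at 12 or fewer, 0.00308 with exactly 1 TRA and 1.56 with 2-TRB barcodes kept. The share of chains turned from 0.962 to -0.106 at 10 or fewer residues. The D call between genotypes turned from -0.277 to 3.57 at 10 or fewer residues, 1.72 at 12 or fewer, 0.627 with at least 3 UMIs, 0.811 with 2-TRB barcodes and 0.735 per barcode. The thinned expanded share of short cells turned from -27.4 to 3.19 at 10 or fewer residues. The iNKT-like share turned from 0.0963 to -3.26 at 12 or fewer residues, -1.56 with exactly 1 TRA and -2.45 per distinct pair. Against 12 to 16 residues, the expanded difference turned from -0.864 to 4.64 with 2-TRB barcodes kept. In each setting with 2-TRB barcodes, the 37 cells of 5xFAD;Cxcr6-/- library 1 with the loop listed as CSSSRQ count as short cells. The D call difference of -17.4 kept its sign under every alternative run.

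Leaving out 1 library at a time, the differences ranged from -1.47 to 0.734 (barcodes), 0.0601 to 1.86 (chains), -18.0 to -16.5 (D call by class), -2.59 to 2.04 (D call by genotype), -4.25 to 5.54 (expanded by class), -38.3 to -16.6 (expanded by genotype), -4.36 to 1.31 (iNKT-like by class) and -5.31 to 5.5 (iNKT-like by genotype). Segments called ranged from 1 to 3.

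The 4 segments called between length classes became 1 at 10 or fewer residues, 2 with exactly 1 TRA, 10 with TMM scaling, 0 with DESeq2 and 0 per barcode. Lower counts at 10 or fewer residues go with fewer short chains tested. For the rest the cause was not tested. The tests by genotype stayed at 0 calls under every alternative run.

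Log2 values of segments that were not called changed sign as follows. With TMM scaling they were -0.57 (TRBJ2-5), -0.11 (TRBV19), -0.19 (TRAV6-6), -0.21 (TRAJ22), -0.23 (TRBV13-2) and -0.41 (TRBV29). With DESeq2 they were -0.27 (TRBJ2-5), -0.038 (TRAV6-6) and -0.22 (TRBV29). At 10 or fewer residues they were -0.17 (TRBJ2-5), -0.26 (TRBV19), 0.34 (TRBV12-2+TRBV13-2) and 0.44 (TRBV12-2), and at 12 or fewer -0.39 (TRBJ2-5) and -0.10 (TRBV13-2). Per barcode they were -0.35 (TRBJ2-5), -0.12 (TRAJ22) and -0.22 (TRBV29). With exactly 1 TRA they were 0.15 (TRBJ2-1), -0.23 (TRBJ2-5) and -0.22 (TRBV29). Without iNKT-like cells TRAV11 was at 0.23 and TRAJ18 at 0.70. With the TRBV13-2 labels joined, an alternative chosen after seeing the data, TRBV13-2 was at -0.17. With 1 library left out the ranges were -0.25 to 0.023 (TRBJ2-1), -0.094 to 0.10 (TRBJ2-5), -0.10 to 0.89 (TRBV19), -0.59 to 0.13 (TRAV11), -0.35 to 0.73 (TRAV6-6), -0.21 to 0.22 (TRAJ18), -0.28 to 0.65 (TRBV13-2) and -0.30 to 0.37 (TRBV29).

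The replicate numbers are shared by the genotypes but no label says that they mark a common batch. Segment use of same-numbered libraries deviated together with a correlation of 0.06 over 165 segments. With the replicate number as a block, the differences stayed at -0.367, 0.962, -0.277, -27.4 and 0.0963 points, with p of 1, 1, 1, 0.5 and 1 in exact permutation tests, where 2 pairs cannot go below 0.5, and 0 segments were called.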
